A study of Mus musculus with 104 samples.

Results

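The neurons described here are the 41 Aldh1a1-high libraries among 104 single-neuron libraries of mouse substantia nigra, 16 titled experiment and 25 titled control. They were selected on the measured Aldh1a1 level, as libraries with a level of at least 500 CPM (CPM scales the count of a gene to the summed counts of all genes of the library, spike-ins left out). The whole series held 38 experiment and 66 control libraries, so 22 experiment and 41 control libraries fell below the threshold and are called Aldh1a1-low. Aldh1a1 chose the libraries and is no finding. It stood at 1097 CPM in the lowest, 3715 CPM in the median and 7302 CPM in the highest experiment library, and at 532, 1491 and 12300 CPM in the lowest, median and highest control library. The 3 libraries just above the threshold were controls at 532, 620 and 685 CPM. The 3 just below it were an experiment library at 417 CPM, a control at 410 CPM and an experiment library at 360 CPM. Between the threshold and its double lay 0 experiment and 10 control libraries.

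In the study single neurons were aspirated into patch pipettes and their RNA was sequenced by Smart-seq2, and its title names genetically encoded reporters that make Lewy pathology visible, the inclusions found in Parkinson disease. The design text describes the collection of α-Syn-6H-EGFP inclusion+ neurons from the substantia nigra pars compacta of mice anaesthetised with tribromoethanol. The cell type given for all libraries is dopaminergic neuron. What the control neurons were is not stated, and no genotype, strain, age, vector or animal is named. With no animals named, each group counts as 1 sample and the groups were not tested against each other. The intervals given below cover counting error only, and the spread between neurons is given by the lowest, median and highest library.

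Aldh1a1 encodes a cytosolic aldehyde dehydrogenase that oxidises retinaldehyde and the reactive aldehyde of dopamine. It marks dopaminergic neurons of the ventral tier of the substantia nigra, the neurons lost early in Parkinson disease. These neurons make dopamine from tyrosine with tyrosine hydroxylase (Th) and the decarboxylase Ddc, load it into vesicles with the monoamine transporter Slc18a2 and take it up again with the dopamine transporter Slc6a3. They fire as autonomous pacemakers and feed a very large axonal arbor, with a high demand for membrane lipid, synaptic protein and mitochondrial ATP.

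The marker genes of dopaminergic neurons were present. Th, Slc6a3, Slc18a2 and Ddc had counts in all 41 libraries, while the summed CPM of cholinergic and serotonergic markers had a median of 0 in both groups and no endothelial, mural or blood marker passed the expression filter. The groups differed in measures of the libraries. Genes detected had a lowest, median and highest value of 3223, 7353.5 and 10438 in experiment libraries, against 4680, 9021 and 10757 in control libraries. Mitochondrial-encoded genes took a median of 4.13% of gene counts in experiment and 2.40% in control libraries, and ERCC spike-ins 0.349% and 0.192% of all counts. Gene counts had a lowest, median and highest value of 116567, 960027 and 1515364 in experiment and 161148, 1024801 and 2577694 in control libraries. The title numbers fall into 2 sets, with set 2 beginning at experiment 36 and after control 37, and the labels do not call these sets batches. The Aldh1a1-high libraries held 9 experiment and 15 control libraries of set 1, and 7 experiment and 10 control libraries of set 2. Within set 1 the experiment libraries were numbered 23 to 35, and the controls numbered 3 to 28 preceded all of them in record order. Respiratory chain genes encoded in mitochondria summed to 1271 to 7616 CPM in controls 3 to 10. In controls 31 to 37 they summed to 6823 to 13751 CPM. Values within set 1 are therefore partly mixed with record order. The part of these measures in the results below was not tested.

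**Figure D1:**
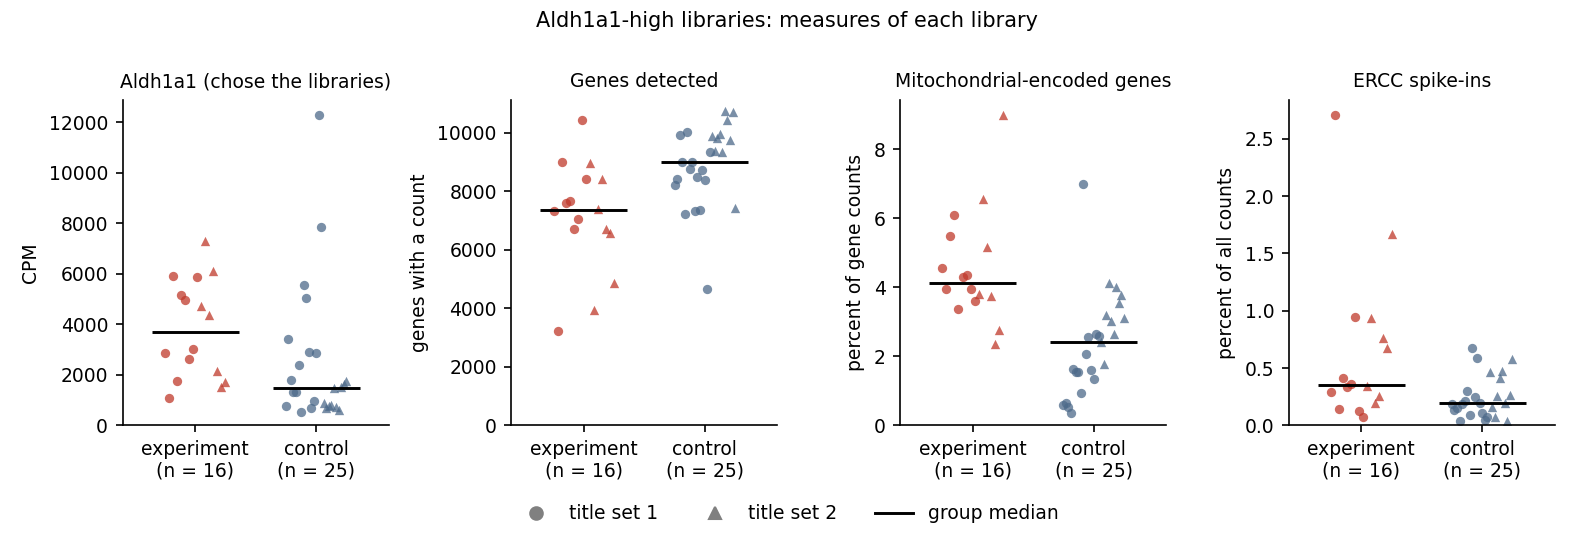
Aldh1a1 level, genes detected, share of mitochondrial-encoded genes and share of ERCC spike-ins in each Aldh1a1-high library, experiment left and control right, with circles for title set 1, triangles for title set 2 and a bar at the group median. Experiment libraries had fewer genes detected (median 7353.5 against 9021 in control) and a larger mitochondrial share (4.13% against 2.40%), with overlap between the groups in all 4 measures.

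Genes that stood lower in experiment neurons outnumbered those that stood higher. A gene was called when it was at least 1.5-fold apart by pooled CPM (summed counts of the group over summed library totals) and by the mean of library CPM, and when experiment exceeded control in at least 65% or at most 35% of all experiment-control pairs of libraries. Expressed genes had a pooled level of at least 10 CPM and a count in at least 50% of the libraries of either group. A gene with counts in under 50% of the libraries of 1 group passed only through the other group. The direction of such a gene is partly fixed by the filter. Of 8278 expressed genes, 197 were called higher (2.38% of those expressed) and 1171 lower (14.1%). The median pooled level over both groups was 86.4 CPM for the genes called higher, 36.9 CPM for those called lower and 48.3 CPM for all expressed genes. Of the 1171 genes, 1059 were lower in both title sets, as were 2764 of all 8278. Of the 197, 196 were higher in both sets, as were 1862 of all 8278. The calls were made on the libraries of these same sets together, so this agreement follows largely from the rule and is no independent check. Between libraries with 6500 to 9500 genes detected, 12 experiment and 15 control, 470 genes were called higher and 1042 lower, of which 143 and 720 were among the genes above. This range was chosen after seeing the data.

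Sqstm1 encodes p62, a receptor that carries ubiquitinated cargo to autophagosomes (chromosome 11, 50199366 to 50210827, minus strand, mm10). Sqstm1 stood at 508, 899 and 1587 CPM in the lowest, median and highest experiment library, and at 113, 535 and 1091 CPM in control libraries. All but 1 of the 16 experiment libraries lay above the control median and 5 lay above the highest control library. The pooled level was 980 CPM (964 to 996) in experiment and 552 CPM (544 to 561) in control, a ratio of 1.77 (1.74 to 1.82). Within set 1 the ratio was 1.71, and within set 2 it was 1.80.

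Cd47 encodes the surface protein that signals to phagocytes through the receptor SIRPα. Cd47 stood at 514, 731 and 1092 CPM in the lowest, median and highest experiment library, against 47.2, 464 and 863 CPM in control libraries. All 16 experiment libraries were above the control median, and the ratio of pooled CPM was 1.62 (1.58 to 1.67), with 2.26 in set 1 and 1.25 in set 2. Scg2, a granin of dense-core vesicles, had lowest, median and highest levels of 1163, 1860 and 3696 CPM in experiment and 485, 1174 and 2171 CPM in control, a ratio of 1.82 (1.79 to 1.85). Of the 16 experiment libraries, 15 exceeded the control median of Scg2 and 6 the highest control.

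The cysteinyl-tRNA synthetase Cars had a median of 130 CPM in experiment and 23.2 CPM in control libraries, with highest libraries at 542 and 224 CPM, and a ratio of 3.50 (3.28 to 3.73). The translation initiation factors Eif3c and Eif1 had ratios of 1.87 and 1.59, the patched-domain protein gene Ptchd1 4.29 and the adherens junction gene Ctnna1 2.11. Ptchd1 was detected in 14 of 16 experiment libraries and in 9 of 25 controls. It passed the expression filter only through the experiment libraries, so its direction is partly fixed by the filter. Cytoplasmic actin Actb and the histone variants H3f3b and H2afz had ratios of 1.56, 2.03 and 1.79. H3f3b, H2afz, Actb and Eif1 have processed copies elsewhere in the genome, so their levels are uncertain where the counting could share reads between copies. Lmo3 completes the 12 genes with the pair share farthest above 50% and is described with the ventral tier.

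The clearest separation downward was that of Fxyd7, a regulatory subunit of the neuronal sodium pump. Fxyd7 was at 0 in 8 of 16 experiment libraries and in 0 of 25 controls. Its lowest, median and highest levels were 0, 1.41 and 94.4 CPM in experiment against 38.1, 137 and 329 CPM in control libraries. The pooled ratio was 0.164 (0.146 to 0.183), and 10 experiment libraries lay below the lowest control. After thinning to 400000 counts, Fxyd7 was detected in 7 of 14 experiment libraries and in 21 of 21 controls.

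Snap25, the SNARE protein that drives vesicle fusion, was abundant in every library (chromosome 2, 136713453 to 136782428, plus strand). Snap25 stood at 1490, 2564 and 4001 CPM in the lowest, median and highest experiment library, and at 1441, 4827 and 6917 CPM in control libraries. All 16 experiment libraries lay below the control median, and 24 of 25 controls lay above the experiment median. Its pooled level was 2680 CPM (2654 to 2707) in experiment and 5019 CPM (4993 to 5046) in control, with ratios of 0.512 in set 1 and 0.557 in set 2. No library of either group was at 0.

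Pcp4l1, the GPI-anchored surface proteins Thy1 and Ly6e, the lysosomal fucosidase Fuca1, the kinase gene Pak1 and the RNA helicase gene Ddx39 were the other genes with the lowest pair shares outside the dopaminergic and sterol groups. Their pooled ratios were 0.167, 0.350, 0.271, 0.212, 0.387 and 0.318. Pcp4l1 was at 0 in 11 of 16 experiment libraries and in 0 of 25 controls. It passed the expression filter only through the controls, so its direction is partly fixed by the filter. In experiment 1 library held 72.7% of the Pcp4l1 counts. The log2 ratio of Pcp4l1 was -2.58 with all libraries and -4.29 once the top library of either group was left out. By the same omission Ddx39 had a log2 ratio of -2.74 in place of -1.65 and Ly6e -2.58 in place of -1.88. Pak1 had lowest, median and highest levels of 0, 100.3 and 287 CPM in experiment and 103, 248 and 438 CPM in control, and 8 experiment libraries lay below the lowest control.

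**Figure D2:**
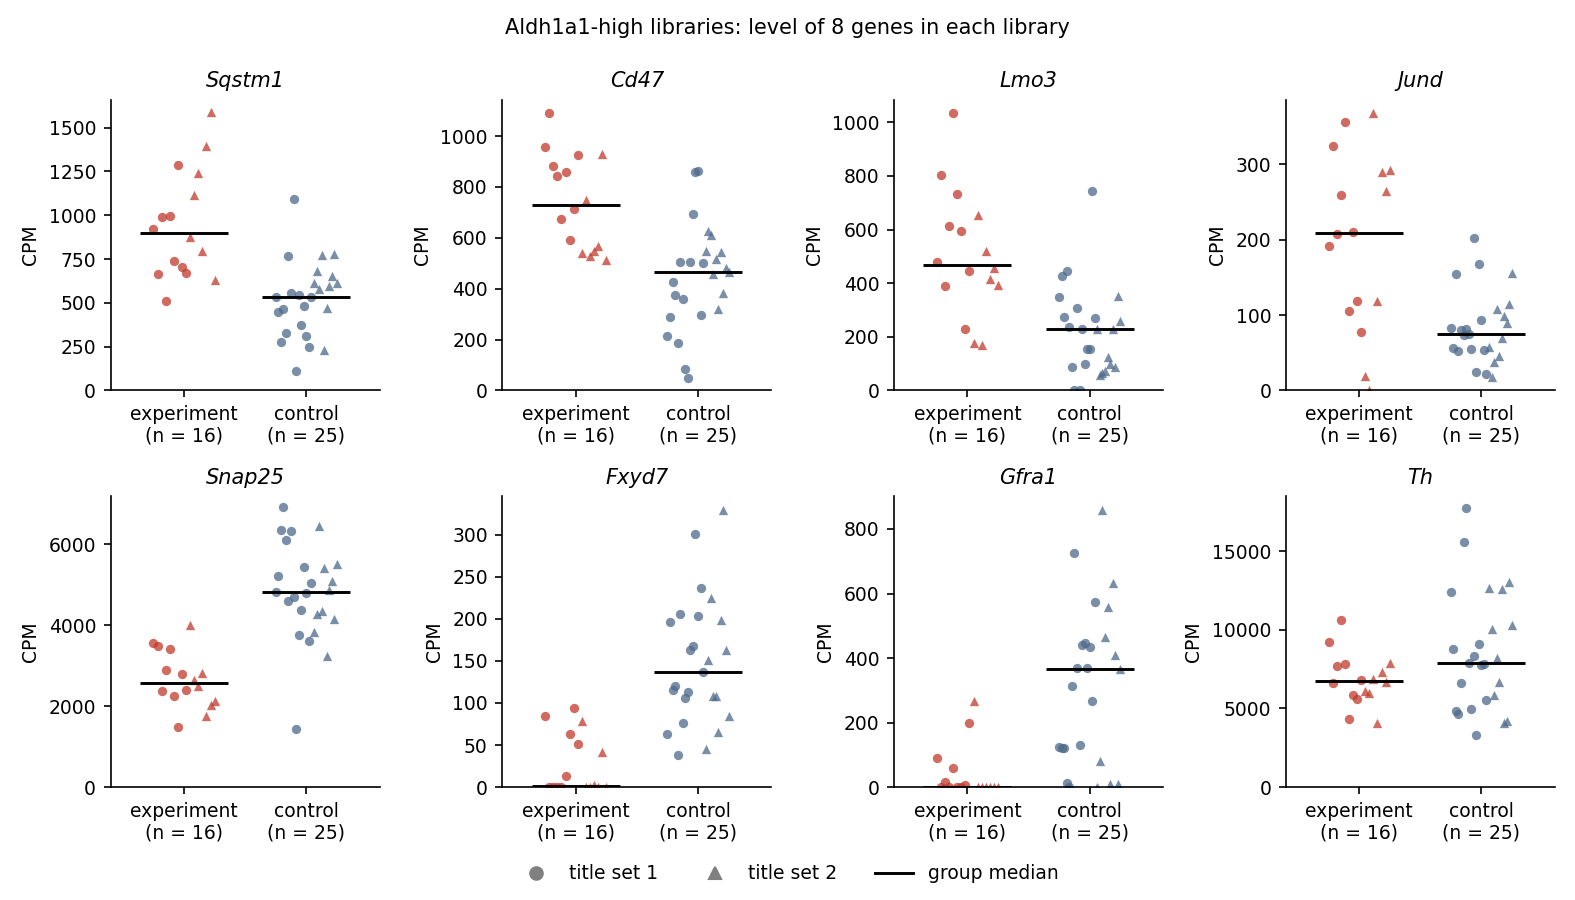
CPM of 8 genes in each Aldh1a1-high library, experiment left and control right, with circles for title set 1, triangles for title set 2 and a bar at the group median. In 16 of 16 experiment libraries Snap25 lay below, and Cd47 above, the median of the control group, while Th (medians 6770 and 7874 CPM) overlapped over most of its range.

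Transcripts of cholesterol synthesis stood lower together in experiment neurons. Neurons make cholesterol through the mevalonate pathway, whose genes are switched on by the transcription factor SREBP2 when membrane sterol is low, and Insig1 holds that factor's escort protein in the endoplasmic reticulum. Of 25 expressed genes of synthesis and uptake, 13 were called lower (52%, against 14.1% of all expressed genes) and 0 higher. Among the 13 were Hmgcs1, Mvd, Idi1, Fdft1, Sqle, Cyp51, Tm7sf2, Msmo1, Hsd17b7, Dhcr7, Insig1 and Stard4. The list had its median at -0.76 on the log2 scale, against -0.09 for all expressed genes, with -0.90 in title set 1 and -0.57 in title set 2.

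Hmgcs1, which makes the HMG-CoA that enters the pathway, stood at 35.5, 179 and 532 CPM in the lowest, median and highest experiment library and at 68.96, 492 and 791 CPM in control libraries. Of 16 experiment libraries, 15 lay below the control median. Its pooled ratio was 0.437 (0.419 to 0.454), with 0.433 in set 1 and 0.444 in set 2. Insig1 had levels of 6.66, 122 and 245 CPM in experiment and 55.4, 352 and 498 CPM in control, with all 16 experiment libraries below the control median and a ratio of 0.403 (0.383 to 0.423). Sqle, the squalene epoxidase, had levels of 0, 60.3 and 409 CPM in experiment and 39.2, 285 and 695 CPM in control. Its ratio was 0.313 (0.296 to 0.331), and 24 of 25 control libraries lay above the experiment median.

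The squalene synthase Fdft1 had a ratio of 0.543, the methyl sterol oxidase Msmo1 0.617, the demethylase Cyp51 0.535 and the isomerase Idi1 0.421. Hsd17b7, a sterol ketone reductase, was at 0 in 13 of 16 experiment and 6 of 25 control libraries, with a ratio of 0.0228 (0.0137 to 0.0358). Leaving out the top library of either group for each gene moved the log2 ratio of Hsd17b7 to -7.27 in place of -5.45, of Idi1 to -1.91 in place of -1.25, of Mvd to -1.60 in place of -0.89 and of Tm7sf2 to -1.90 in place of -0.94. In title set 2 alone Tm7sf2, a sterol reductase gene at 0 in 11 of 16 experiment libraries, had a log2 ratio of 0.02, and Msmo1 a ratio of 0.853. Hsd17b7 and Tm7sf2, both among the genes called lower, passed the expression filter only through the control libraries. Their direction is therefore partly fixed by the filter. Srebf2, which encodes SREBP2, was not called, with a ratio of 0.590 and medians of 6.36 CPM in experiment and 51.1 CPM in control libraries.

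The summed level of 19 enzymes of the pathway, a set chosen by function after the values were seen, was 457, 1226 and 3818 CPM in the lowest, median and highest experiment library and 661, 2959 and 4998 CPM in control libraries. Of 16 experiment libraries, 14 lay below the control median, and 1 of 25 control libraries lay below the experiment median. The medians were 983 and 3074 CPM for experiment and control in set 1, and 1418 and 2661 CPM in set 2. Within experiment libraries the sum had a Spearman rho of 0.26 with genes detected (n = 16), and within control libraries -0.11 (n = 25). These correlations describe neurons of 1 group each. Among libraries with 6500 to 9500 genes detected, 15 of 25 genes of the list were called lower, where 12.8% of all expressed genes were. In the Aldh1a1 range that both groups cover, 1097 to 7302 CPM, 13 genes of the list were called lower and 1 higher. There 16.1% of all expressed genes were called lower and 3.46% higher.

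**Figure D3:**
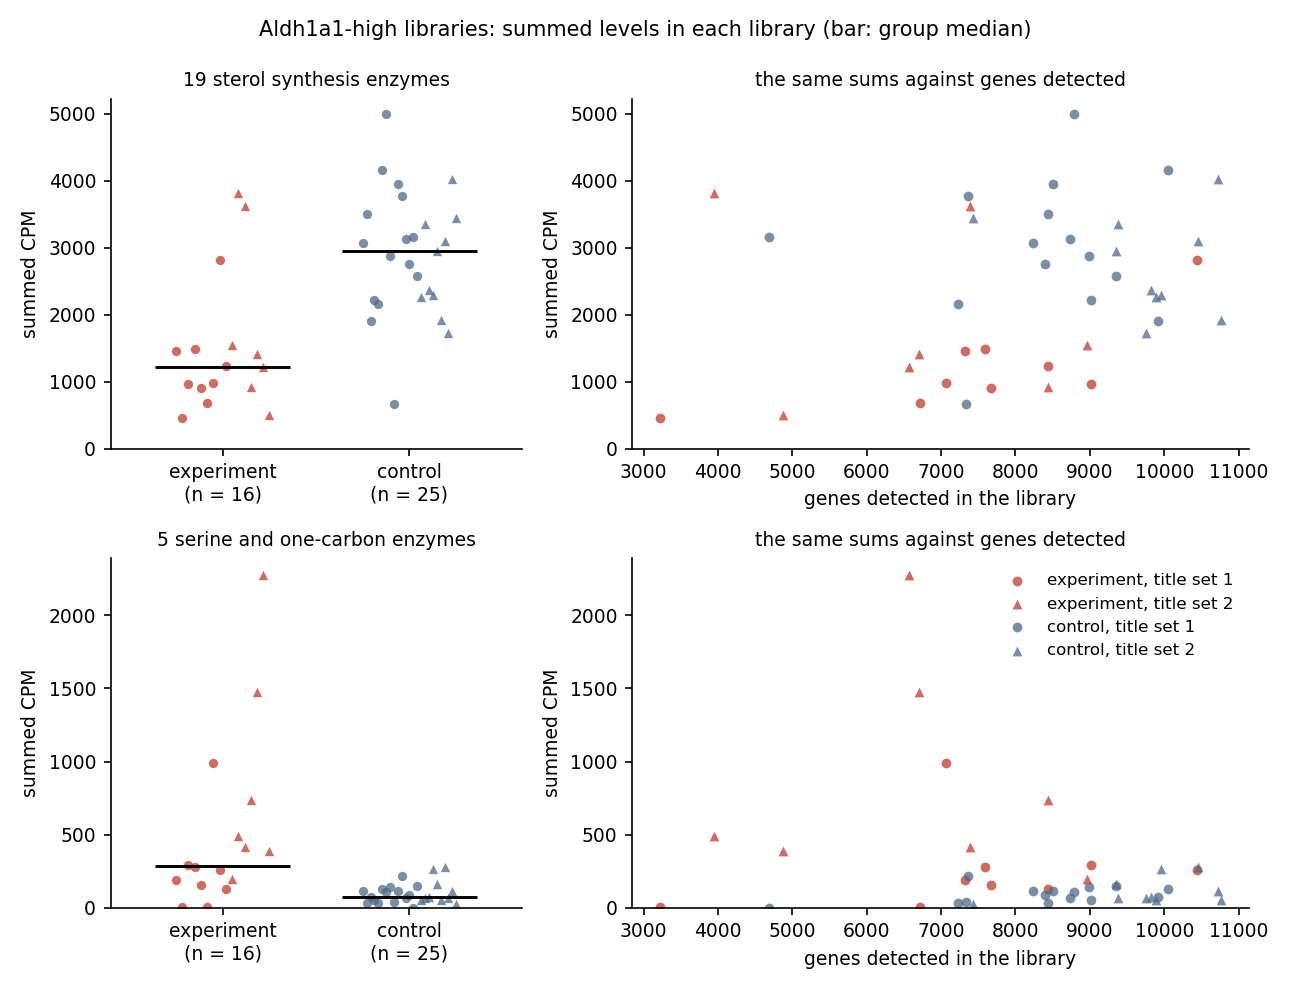
Summed CPM of 19 sterol synthesis enzymes (top) and of 5 serine and mitochondrial one-carbon enzymes (bottom) in each Aldh1a1-high library, experiment left and control right with a bar at the group median, and the same sums against genes detected. The sterol sum had medians of 1226 CPM in experiment and 2959 CPM in control libraries, and the serine and one-carbon sum 284 and 74.8 CPM.

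Genes of amino acid supply and transfer RNA charging, many of which are targets of the stress-activated transcription factor ATF4, stood higher in part. Of 33 expressed genes of endoplasmic reticulum and integrated stress, 6 were called higher (18.2%, against 2.38% of all expressed genes) and 4 lower. The median log2 ratio was 0.42, with 0.05 in title set 1 and 0.43 in title set 2. On the mean log2(CPM + 1) scale that median was -0.22, where all expressed genes stood at -0.62. The 6 were Phgdh, Psat1 and Psph, which make serine from a glycolytic intermediate, Mthfd2 of mitochondrial one-carbon metabolism, the amino acid transporter chain Slc3a2 and the transcription factor Ddit3 (CHOP).

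Psat1 stood at 0, 72.1 and 700.1 CPM in the lowest, median and highest experiment library and at 0, 7.77 and 141 CPM in control libraries. It exceeded the highest control in 6 experiment libraries and was at 0 in 4. The ratio was 4.15 (3.87 to 4.44), 3.84 in set 1 and 4.10 in set 2. Phgdh had a ratio of 4.31 (5.37 in set 1, 3.76 in set 2) and Psph 3.86 (4.20 and 3.61). Phgdh stood lower among libraries with an ERCC share at or below the median (5 experiment, 16 control), with a log2 ratio of -1.39. Mthfd2 had a ratio of 6.13 (5.68 to 6.62), 1.81 in set 1 and 8.36 in set 2, and exceeded the highest control in 7 experiment libraries. Slc3a2 had medians of 315 CPM in experiment and 170 CPM in control libraries and a ratio of 2.41, and Ddit3 medians of 168 and 89.1 CPM and a ratio of 2.38.

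The summed level of Phgdh, Psat1, Psph, Shmt2 and Mthfd2, a set chosen after the values were seen, was 5.08, 284 and 2276 CPM in the lowest, median and highest experiment library and 0, 74.8 and 279 CPM in control libraries. Of 16 experiment libraries, 14 exceeded the control median of this sum and 8 exceeded every control. The experiment libraries were therefore uneven, some within the control range and some far above it. The medians were 194 and 86.7 CPM for experiment and control in set 1, and 492 and 72.1 CPM in set 2. Atf4 itself was not called, with a ratio of 1.87, made up of 0.984 in set 1 and 2.36 in set 2.

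The 4 genes of the same list called lower (12.1%, against 14.1% of all expressed genes) were Pdia6, Dnajc3, Dnajb11 and Creld2. The disulfide isomerase Pdia6 had levels of 0, 41.2 and 364 CPM in the lowest, median and highest experiment library and 60.1, 188 and 472 CPM in control libraries, and 10 experiment libraries lay below the lowest control. The ratios were 0.532 for Pdia6, 0.515 for Dnajc3, 0.457 for Dnajb11 and 0.613 for Creld2. Dnajc3 stood level in set 2, with a ratio of 1.05. Hspa5, the main luminal chaperone BiP, was not called, with medians of 437 CPM in experiment and 489 CPM in control libraries and a ratio of 1.13.

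Of 21 aminoacyl-tRNA synthetases, 4 were called higher and 2 lower, and their median was 0.25 on the log2 scale. The share called higher exceeded the 2.38% of all expressed genes, while the share called lower was below their 14.1%. Beside Cars, the higher ones were Aars, Sars and Yars, with ratios of 1.69, 1.52 and 1.91, and the lower ones Wars and Vars, with 0.575 and 0.449. Aars had medians of 519 CPM in experiment and 243 CPM in control libraries, and 7 experiment libraries lay above the highest control.

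The promoters of the called genes of these lists were read for known motifs. A motif bound by SREBP (TCACNCCAC, N for any base, both strands) lies in 1 of the 9 promoters of genes called lower in the sterol list that the RefSeq table holds, in 0 of 9 of its other members, and in 1.44% of all 27025 genes with a promoter there. The CCAAT core (ATTGG) lies in 9 of 9 and 8 of 9, and in 41.1% of all genes. A motif bound by ATF4 dimers (TGATGNAA) lies in 2 of 9 promoters of the stress and synthetase genes called higher, in 8 of 33 of the other members of the lists, and in 4.51% of all genes, and its longer form TGATGNAAT in 1 of 9, 3 of 33 and 1.08%. Each promoter ran from 250 bases before to 50 bases after the start of the gene in RefSeq (GRCm38.p6), and these 4 patterns were all that were searched. A match of TCACNCCAC and one of TGATGNAA among the called genes are shown on the plus strand, which is the strand of both genes, with the motif in capitals.
Hmgcs1, chr13:119690204-119690232: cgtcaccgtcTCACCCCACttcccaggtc
Yars, chr4:129189896-129189923: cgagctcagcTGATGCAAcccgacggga
The match in Hmgcs1 begins 137 bases before the start, while that in Yars begins 3 bases after the first base of the transcript. A match is a description of the letters and says nothing of binding in these neurons.

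Th, Slc6a3, Slc18a2 and Ddc, the genes of dopamine synthesis and handling, were not called. Th had levels of 4057, 6770 and 10616 CPM in the lowest, median and highest experiment library and 3308, 7874 and 17764 CPM in control libraries. The groups overlapped and the pooled ratio was 0.801 (0.795 to 0.807), which was not called. Slc6a3 had a ratio of 0.897 and Ddc 1.03. Slc18a2 had medians of 2082 CPM in experiment and 3190 CPM in control libraries, with 24 of 25 controls above the experiment median, but its ratio of 0.785 was within 1.5-fold. In title set 1 Slc6a3, Slc18a2 and Ddc had ratios of 1.03, 1.06 and 1.26, and in title set 2 0.802, 0.599 and 0.906. The developmental regulators Nr4a2 and Pitx3 had ratios of 1.00 and 0.872.

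Of 26 expressed genes of the dopaminergic list, 8 were called lower (30.8%, against 14.1% of all expressed genes) and 1 higher, and the list's log2 ratios had their median at -0.33. Gfra1, the co-receptor for the survival factor GDNF, was at 0 in 9 of 16 experiment and 1 of 25 control libraries. Only the control libraries carried Gfra1 past the expression filter, so its direction is partly fixed by the filter. Gfra1 had levels of 0, 0 and 268 CPM in the lowest, median and highest experiment library and 0, 365 and 858 CPM in control libraries, and all 16 experiment libraries lay below the control median. Its ratio was 0.116 (0.106 to 0.126), with 0.123 in set 1 and 0.110 in set 2, and 1 experiment library held 65.97% of the group's counts. With the top library of either group left out its log2 ratio was -4.43 in place of -3.11.

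Gch1, the first enzyme in the synthesis of the Th cofactor, had medians of 129 CPM in experiment and 263 CPM in control libraries and a ratio of 0.489 (0.465 to 0.515). Qdpr, which regenerates that cofactor, had a ratio of 0.600. The monoamine oxidases Maoa and Maob, which degrade dopamine, had ratios of 0.220 and 0.155, with Maoa at 0.785 in set 1 and 0.0214 in set 2. The transmembrane protein Dlk1 had medians of 346 and 742 CPM in experiment and control libraries and a ratio of 0.501, and the nicotinic receptor subunit Chrna6 a ratio of 0.642. The forkhead factors stood apart from each other, with Foxa2 at a ratio of 0.167 and Foxa1, the 1 member called higher, at 2.06 (1.91 to 2.23). Foxa2 and Maob had log2 ratios of -3.63 in place of -2.59 and -3.89 in place of -2.69 once the top library of either group was left out. In the upper part of the libraries by genes detected, 3 experiment and 18 control, the median of the list was 0.04, that of all expressed genes -0.18, and the log2 ratio of Qdpr 0.02.

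Among 10 expressed ventral tier genes other than Aldh1a1, 3 were called higher (30%, against 2.38% of all expressed genes) and 2 lower (20%, against 14.1%). Lmo3, a LIM-only transcriptional cofactor, had levels of 169, 468 and 1033 CPM in the lowest, median and highest experiment library and 0, 228 and 744 CPM in control libraries, with 13 of 16 experiment libraries above the control median and a ratio of 2.30 (2.22 to 2.38). Anxa1, a membrane-binding annexin of a ventral subgroup, had medians of 145 and 0 CPM in experiment and control libraries and a ratio of 6.37 (6.05 to 6.70), and exceeded the highest control in 3 experiment libraries. Anxa1, 1 of the 3 genes called higher, passed the expression filter only through the experiment libraries, so its direction is partly fixed by the filter. Ndnf, a secreted neurotrophic factor, had a ratio of 1.62. Igf1 and the neurotensin receptor Ntsr1 had ratios of 0.460 and 0.616. The median of the list was 0.54 by pooled CPM and -0.58 by mean log2(CPM + 1), where all expressed genes stood at -0.62. In the upper part of the libraries by genes detected Anxa1 stood lower (log2 ratio -0.50) and Ntsr1 higher (0.30). Aldh1a1 itself differed between the groups inside the threshold, as given above, and its part in these values was not tested. Within the Aldh1a1 range of both groups the log2 ratio was 0.91 for Lmo3 and 1.74 for Anxa1.

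Of the dorsal tier and ventral tegmental list 5 genes were expressed, with Lypd1 called higher (ratio 4.20) and the glutamate transporter Slc17a6 lower (0.213). Calb1, the calbindin of dorsal tier neurons, was not called. Its medians were 15.6 and 32.6 CPM in experiment and control libraries, but its pooled ratio was 0.0962, and 1 control library held 45.1% of the control counts. Slc17a6 had a log2 ratio of -3.45 in place of -2.23 once the top library of either group was left out.

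At the synapse and membrane the lower calls were spread over several families. Of 42 synaptic vesicle genes 6 were called lower, or 14.3% against the 14.1% of all expressed genes, and 1 higher. Besides Snap25 these were Napb, a SNARE-recycling factor, Cplx2, Synj1, Rab3b and Rims2, with ratios of 0.579, 0.623, 0.626, 0.123 and 0.501, and the vesicle glycoprotein Sv2c stood higher at 1.51. Rims2 had a log2 ratio of 0.65 in title set 2, and Rab3b -3.75 in place of -3.03 without the top library of either group. The median of the list was -0.36, with -0.15 in set 1 and -0.56 in set 2. Vamp2 and Syt1 were not called, with ratios of 0.606 and 0.7998.

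Of 35 ion channel genes, 10 were called lower (28.6%, against 14.1% of all expressed genes). Trpc6 (ratio 1.56) was the 1 called higher (2.86%, against 2.38%), and the median log2 ratio was -0.04. Scn8a and Scn2b, subunits of the sodium channel, had ratios of 0.251 and 0.420, the sodium leak channel Nalcn 0.541, the potassium channel Kcna2 0.319 and the calcium channel subunits Cacna1d, Cacna1g and Cacna2d3 0.413, 0.593 and 0.333. Scn2b was detected in all 41 libraries, at medians of 337 CPM in experiment and 580 CPM in control libraries. Most others were at 0 in some libraries of both groups, such as Scn8a in 6 of 16 experiment and 1 of 25 control libraries. Cacna1g had a log2 ratio of 0.67 in the upper part of the libraries by genes detected, and leaving out the top library of either group gave Cacna1d -2.10 in place of -1.28 and Cacna2d3 -2.31 in place of -1.59. The other 3 genes called lower were Kcnip4, Abcc8 and Hcn3, with ratios of 0.578, 0.544 and 0.502.

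Of 23 expressed glutamate and GABA receptor genes 6 were called lower (26.1%, against 14.1% of all expressed genes) and 0 higher, with a median of -0.42. Among them were the GABA-B receptor Gabbr1 (ratio 0.459), the GABA-A subunits Gabra2 and Gabrg3 (0.218 and 0.540) and the AMPA receptor subunit Gria4 (0.444). Gabbr1 had levels of 0, 126 and 357 CPM in the lowest, median and highest experiment library and 52.7, 243 and 803 CPM in control libraries. Gria4 and Gabrg3 stood higher under 1 alternative each, with log2 ratios of 0.54 among libraries with many genes detected and 1.26 among those low in ERCC share. Gabrg3 rested on 1 experiment library with 89.2% of the group's counts, and its log2 ratio was -3.92 in place of -0.89 when the top library of either group was left out. In the axon list 2 of 33 genes were called lower, the growth-associated Stmn1 (0.613) and the neurofilament-like Ina (0.555). That is 6.06%, below the 14.1% of all expressed genes, and the median of the list was -0.03.

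Transcripts of the mitochondrial genome stood higher, 8 of 9 expressed genes being called (88.9%, against 2.38% of all expressed genes). Their median log2 ratio was 1.07. In Aldh1a1-low libraries 0 of 9 were called, and the median was 0.33. The summed level of the list had medians of 21939 CPM in experiment and 10049 CPM in control Aldh1a1-high libraries. In Aldh1a1-low libraries these medians were 28719 and 19314 CPM. mt-Nd5, a subunit of complex I, had levels of 2399, 3026 and 5531 CPM in the lowest, median and highest experiment library and 192, 1183 and 2612 CPM in control libraries. All 16 experiment libraries lay above the control median and 11 above the highest control. The ratio was 2.29 (2.26 to 2.32), but 5.32 in set 1 and 1.499 in set 2, and the median of the list was 2.19 in set 1 and 0.51 in set 2. Of 78 expressed nuclear-encoded respiratory chain genes 1 was called higher (1.28%, against 2.38% of all expressed genes) and 0 lower (against 14.1%). The higher one was the ATP synthase subunit Atp5g2 (ratio 1.90). Another subunit of that enzyme, Atp5b, with medians of 2475 CPM in experiment and 1664 CPM in control libraries and a ratio of 1.45, was not called.

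Of 79 ribosomal protein genes 15 were called higher and 0 lower, with a median of 0.62, and 0.45 under TMM scaling, where 2 were called. Of all expressed genes 2.38% were called higher and 14.1% lower. In Aldh1a1-low libraries 1 of 79 ribosomal protein genes was called higher, against 2.05% of all expressed there, and the median was 0.46. Rpl13 had medians of 569 and 284 CPM in experiment and control libraries and a ratio of 1.95. Their processed copies make these levels uncertain. The immediate early list had 3 of 18 genes called higher (16.7%, against 2.38% of all expressed genes) and 0 lower. Its median log2 ratio was -0.01, with 9 genes below a ratio of 1 and 9 above it. By title set the median was -0.30 in set 1 and 0.07 in set 2. Jund, an AP-1 subunit, had levels of 0, 209 and 368 CPM in the lowest, median and highest experiment library and 17.6, 74.6 and 202 CPM in control libraries, and exceeded the highest control in 9 experiment libraries, with a ratio of 2.32 (2.19 to 2.45). Klf6 and Fosb had ratios of 2.02 and 1.72, and Fos, an early marker of neuronal activity, 1.20.

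Of 59 autophagy and lysosome genes 3 were called higher (5.08%, against 2.38% of all expressed genes) and 10 lower (16.9%, against 14.1%), and the median log2 ratio was 0.05. The higher ones were Sqstm1, the autophagy enzyme Atg3 (ratio 1.57) and the cathepsin Ctss. Optn, another autophagy receptor for ubiquitinated cargo, had a ratio of 0.434, with 0.191 in set 1 and 1.14 in set 2, and a log2 ratio of -1.95 in place of -1.20 without the top library of either group. The cathepsin Ctsf had medians of 15.9 and 154 CPM in experiment and control libraries and a ratio of 0.312. Tmem106b, a lysosomal membrane protein gene, had a ratio of 0.217, and a log2 ratio of -2.81 in place of -2.20 without the top library of either group. Atp13a2, which moves polyamines out of lysosomes, had a ratio of 0.374. Atp13a2, Synj1 and Vps13c (0.389) were the 3 of 17 expressed genes of monogenic Parkinson disease called lower (17.6%, against 14.1% of all expressed genes), and 0 were called higher. Of 36 proteasome genes, 3 were called higher (8.33%, against 2.38% of all expressed genes) and 1 lower (2.78%, against 14.1%). The higher ones were Psma7, Psmc2 and Psmd4, with ratios of 1.54, 1.62 and 1.55, and the lower one the activator Psme4, with 0.381.

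**Figure D4:**
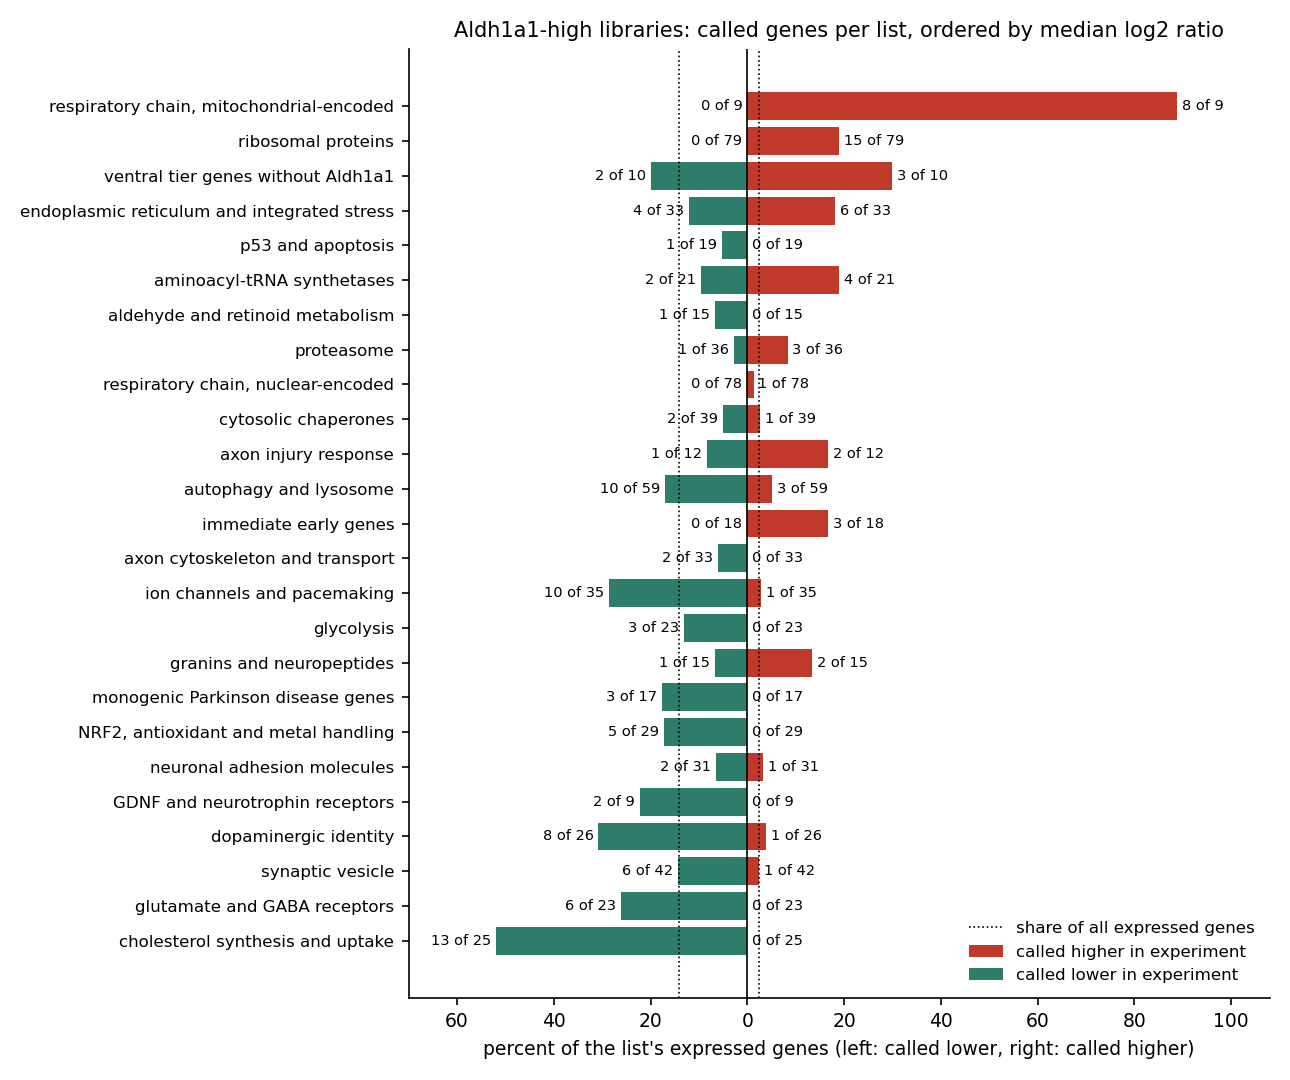
Percent of the expressed genes of each list with at least 9 such genes that were called higher (right) or lower (left) in experiment among Aldh1a1-high libraries, ordered by median log2 ratio, with the counts beside the bars and dotted lines at the shares over all expressed genes (2.38% and 14.1%). The sterol list had 13 of 25 genes called lower and the mitochondrial-encoded list 8 of 9 called higher.

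Markers of other cells were present in both groups, at levels that differed widely between libraries. The summed CPM of 10 microglial markers had lowest, median and highest values of 0, 200.01 and 3115 in experiment and 0, 130.5 and 465 in control libraries. Of 5 expressed ones, C1qa and Ctss were called higher, with ratios of 3.72 and 6.27 and medians of 31.01 and 1.63 CPM in experiment against 0 CPM in control. All 5 had log2 ratios above 0, with a median of 2.24, and C1qb and C1qc, which were not called, had log2 ratios of 2.24 and 2.84. C1qa and Ctss passed the expression filter only through the experiment libraries, so their direction is partly fixed by the filter. In Aldh1a1-low libraries 1 microglial marker was expressed, with a log2 ratio of -1.18. The summed level of the complement genes C1qa, C1qb and C1qc, a set chosen after the values were seen, had medians of 126 CPM in experiment and 1.25 CPM in control libraries, and 12 of 16 experiment libraries lay above the control median. Without the top library of either group the log2 ratio of Ctss was 3.28 in place of 2.65. The microglial markers that did not pass the expression filter, Cx3cr1, Csf1r, P2ry12, Tmem119 and Aif1, had a median of 0 in both groups. Tmem119 was at 0 in 15 of 16 experiment and 25 of 25 control libraries. Ctss also belongs to the lysosomal list. The astrocyte sum of 12 markers had medians of 623 and 404 CPM in experiment and control libraries, with ranges of 137 to 2381 and 118 to 2716 CPM. The oligodendrocyte sum of 10 had medians of 852 and 597 CPM, with ranges of 5.74 to 9643 and 87.0 to 9518 CPM. Of 4 expressed markers of each of these, 0 were called. Gfap, Aqp4, Mog and Mag, among the markers that did not pass the expression filter, had a median of 0 in both groups. The part of these markers in the results above was not tested. Without the 25% of libraries highest in glial markers, 13 genes of the sterol list were again called lower, and 9 of the stress list were called higher in place of 6. The shares of all expressed genes rose as well, to 21.2% called lower and 3.07% called higher. GABAergic markers had summed medians of 60.5 CPM in experiment and 50.4 CPM in control libraries.

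The same contrast in Aldh1a1-low libraries shared the direction of some groups and not of others. Of 7773 genes expressed there, 159 were called higher (2.05%) and 445 lower (5.72%). Of the 197 genes called higher in Aldh1a1-high libraries 139 (70.6%) stood above 0 on the log2 scale in Aldh1a1-low ones, against 46.8% of all 8278. Of the 1171 called lower, 730 (62.3%) stood below 0, against 53.2% of all. The libraries of the Aldh1a1-high and Aldh1a1-low contrasts do not overlap, and the difference between the contrasts was not tested. GABAergic markers had summed medians of 401 CPM in experiment and 53.9 CPM in control Aldh1a1-low libraries, and their part in the Aldh1a1-low values was not tested.

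Th had a ratio of 0.801 in Aldh1a1-high and 0.419 in Aldh1a1-low libraries, and Ddc 1.03 and 0.664. Snap25 had a ratio of 0.534 in Aldh1a1-high and 0.998 in Aldh1a1-low libraries, Pak1 0.387 and 1.04, Thy1 0.350 and 1.09, and Scg2 1.82 and 1.01. Gfra1 had 0.116 and 0.573. Foxa1 and Ndnf lay on opposite sides, at 2.06 and 1.62 in Aldh1a1-high and 0.418 and 0.411 in Aldh1a1-low libraries.

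The sterol and serine groups stood on the same side in both, with Dhcr7 and Tm7sf2 as exceptions at ratios of 1.39 and 1.65 in Aldh1a1-low libraries. The sterol list had 13 of 25 genes called lower in Aldh1a1-high and 6 of 25 in Aldh1a1-low libraries, with medians of -0.76 and -0.44. The sum of the 19 enzymes had medians of 1614 CPM in experiment and 2533 CPM in control Aldh1a1-low libraries. The sum of the 5 serine and one-carbon enzymes had medians of 303 and 78.3 CPM there, and Psat1 and Phgdh had ratios of 8.18 and 6.51. Sqstm1 had a ratio of 1.33, Eif1 1.53 and H2afz 2.12 in Aldh1a1-low libraries.

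**Figure D5:**
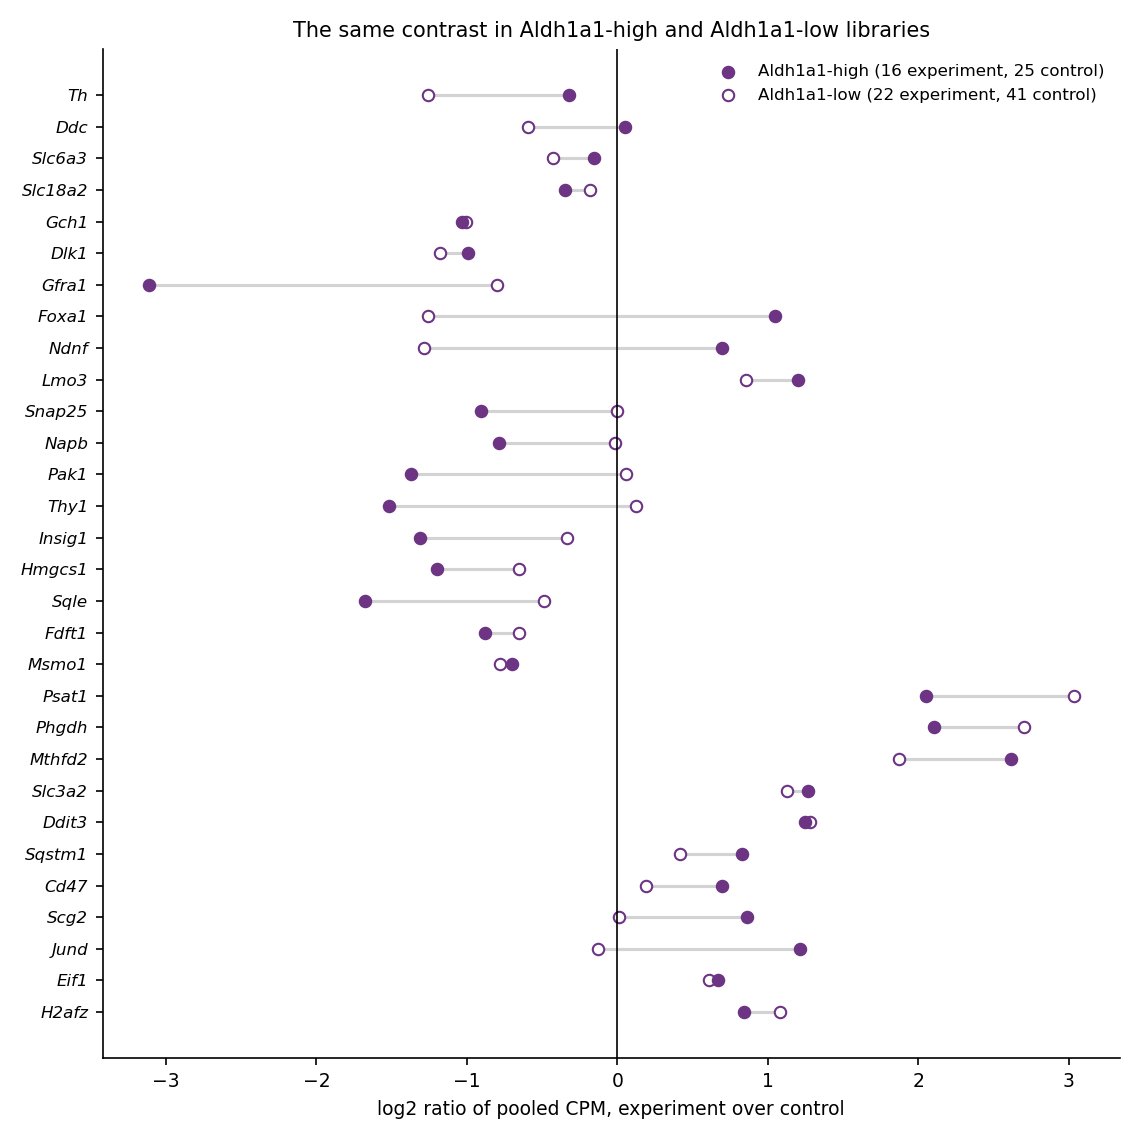
Log2 ratio of pooled CPM, experiment over control, of 30 genes in Aldh1a1-high libraries (filled) and Aldh1a1-low libraries (open), joined by a line. Psat1, Phgdh and Mthfd2 lay above 0 and Hmgcs1, Insig1 and Sqle below 0 in both, while Foxa1, Ndnf, Jund, Ddc, Pak1 and Thy1 lay on opposite sides of 0 and Snap25 had a ratio of 0.998 in Aldh1a1-low libraries.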

How the data were processed

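RNA of single neurons was made into Smart-seq2 cDNA and HyperPlus libraries, as the labels' protocols describe. The authors deposited a table of raw counts covering 104 libraries, with genes named by symbol. The submitters' processing notes list STAR 2.5.3a, featureCounts 1.5.3 and the build mm10. How multi-mapping reads were handled, the strand setting and the annotation were not given in the sources used here. Library totals were taken over 45808 gene rows, without the 92 ERCC rows. No pair of the 820 pairs of Aldh1a1-high libraries had identical counts.

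Counts were summed per group and divided by summed totals (pooled CPM), with an exact Poisson 95% interval. Ratios, experiment over control, carry the interval of the exact binomial split. Reads carry no molecular identifiers, so intervals cover counting error only. Expressed genes had a pooled CPM of at least 10 over the Aldh1a1-high libraries and a count in at least 50% of the libraries of either group. Ties count as an equal share in pair shares. All log2 ratios are of pooled CPM unless another scale is named.

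The members and the 35 gene lists were chosen with earlier results of these data known. The text names the 12 called genes of each direction with the pair share farthest from 50%, with the same sign in both title sets and not opposed after thinning, without unnamed models, pseudogenes, ribosomal, mitochondrial and sex-linked genes. It also names Th, Slc6a3, Slc18a2 and Ddc, and up to 4 genes per list by the same ranking. Another 56 genes, and Atg3, Atp5g2, Kcnip4, Abcc8, Hcn3 and the genes given only as cell markers or list calls, were named after their values were seen. For experiment titles the division into sets rests on the order of the records. Positions come from GENCODE M21 and promoters from RefSeq. The rule for calls was tested on simulated data. Results were recomputed under 17 other settings, and 2 more chosen after seeing the data. Among them were edgeR 4.0.16 (TMM) and DESeq2 1.42.0 (size factors) for scaling only. Other work used Python 3.11.15, pandas 2.3.3 and scipy 1.17.1.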

Additional observations from a re-analysis of the deposited data

How the results depend on the processing

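The counts of 197 genes called higher and 1171 lower moved with several choices. Higher calls numbered 129 under TMM, 298 with an Aldh1a1 threshold of 1000 CPM, 528 in title set 1, 520 in title set 2, 324 after thinning, 977 among libraries with many genes detected (3 experiment, 18 control), 970 among those low in ERCC share (5 and 16), 340 without libraries of under 5000 genes and 470 between 6500 and 9500 genes, the last pair of choices made after seeing the data. Lower calls numbered 422 at a pooled CPM of at least 50 and 2186 in title set 2. Lower genes made 85.6% of calls, and 75.5% at that CPM, 69.3% in title set 1, 62.1% and 58.5% in the splits by genes detected and ERCC share, 74.7% without libraries of under 5000 genes and 68.9% between 6500 and 9500 genes. The median of all expressed genes was -0.09, but -0.26 under TMM, -0.62 by mean log2(CPM + 1) and -0.27 with the top libraries left out, and list medians are read against it.

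Some log2 ratios changed sign, and the cause was not tested. By mean log2(CPM + 1) the medians were -0.58 for ventral tier genes, -0.22 for endoplasmic reticulum and integrated stress and -0.40 for p53 and apoptosis, each above the -0.62 of all expressed genes. On that scale the median also turned below 0 for interferon and class I (-0.65 in place of 0.20), autophagy and lysosome (-0.36 in place of 0.05), astrocyte markers (-0.20 in place of 0.20), cytosolic chaperones (-0.16 in place of 0.08), aldehyde and retinoid genes (-0.10 in place of 0.23), proteasome (-0.10 in place of 0.19), axon injury (-0.09 in place of 0.06) and the nuclear-encoded respiratory chain (-0.02 in place of 0.11). Ventral tier genes stood at -0.15 with no filter, and p53 genes at -0.33 at the stricter CPM. At an Aldh1a1 threshold of 250 CPM GABAergic markers stood at 0.70 and oligodendrocyte markers at 0.20. Oligodendrocyte markers stood at 0.40 in title set 1. In title set 2 the values were 0.28 for dorsal tier genes, 0.46 for GABAergic markers, 0.072 for Dnajc3, 0.72 for Opcml, 0.023 for Tm7sf2, 0.19 for Optn and 0.65 for Rims2. Among libraries with many genes detected they were 0.044 for dopaminergic identity, -0.077 for p53 genes, 0.0074 for oligodendrocyte markers, 0.0066 for Igf1, 0.30 for Ntsr1, -0.50 for Anxa1, 0.54 for Gria4, 0.11 for Pdia6, 0.019 for Qdpr, 0.67 for Cacna1g and 0.69 for Vars. Among libraries low in ERCC share they were 0.0011 for glutamate and GABA receptors, -0.13 for p53 genes, 1.26 for Gabrg3, 0.64 for Hspa2, 0.014 for Dhcr7, 0.033 for Tm7sf2 and -1.39 for Phgdh. The sterol list had 8 to 17 genes called lower under all alternatives, and a median below 0 in each.

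No paired analysis was possible because each group counts as 1 sample and numbers shared between experiment and control titles only name libraries. Neurons of unknown animals limit every comparison, and genes near 0 in most libraries, such as Hsd17b7, cannot be told apart from failed detection at this depth.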

Other observations

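The counts below are read against the 2.38% of all expressed genes called higher, the 14.1% called lower and their median log2 ratio of -0.09. Of 39 expressed cytosolic chaperone genes 1 was called higher and 2 lower, with a median log2 ratio of 0.08, and Hspa4l, a cochaperone of Hsp70, had a ratio of 0.603. Of 23 glycolysis genes 0 were called higher and 3 lower, with a median of -0.06, and of 19 p53 and apoptosis genes 0 and 1, with a median of 0.27. The lower one was Xiap, an inhibitor of caspases, with medians of 9.50 CPM in experiment and 52.7 CPM in control libraries and a ratio of 0.290. The ferritin light chain Ftl1 was not called, with medians of 612 and 399 CPM and a ratio of 1.49. Of 15 expressed granin and neuropeptide genes 2 were called higher, Scg2 and the prohormone convertase Pcsk2 (ratio 1.51), and 1 lower, Nucb2 (0.564).

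Among adhesion molecules of the IgLON family, Ntm stood higher, with medians of 227 CPM in experiment and 105 CPM in control libraries and a ratio of 1.69 (1.61 to 1.77). Lsamp stood lower, with medians of 77.7 and 293 CPM and a ratio of 0.404 (0.385 to 0.424). In Aldh1a1-low libraries the ratios of Ntm and Lsamp were 1.26 and 0.931. Aldh1a7, a neighbour of Aldh1a1 on chromosome 19, was not called, with a pooled ratio of 3.05 and medians of 110 CPM in experiment and 55.5 CPM in control libraries. It is a close paralog of Aldh1a1, so reads may be shared between them.

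Of 29 expressed antioxidant and metal handling genes, 0 were called higher and 5 lower (17.2%), among them Gss of glutathione synthesis (ratio 0.366) and the mitochondrial peroxidase Prdx3 (0.517). Of 15 aldehyde and retinoid genes 1 was called lower, Aldh7a1 (0.268). Of 9 GDNF and neurotrophin receptor genes 2 were called lower, Gfra1 and the sorting receptor Sort1 (0.496), which is 22.2%, and of 5 interferon and class I genes 2 were called lower, Tapbp (0.519) and Stat2 (0.344). Of 12 axon injury genes Ddit3 and Klf6 were called higher, which is 16.7%, and Flrt3 (0.541) lower. Aldh7a1 and Flrt3 had log2 ratios of -2.65 in place of -1.90 and -1.82 in place of -0.89 without the top library of either group.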
